A study of Mus musculus with 25 samples.

Results

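The genes examined are those of the mouse table whose symbol is Gpr followed by a number, the naming series given to G protein-coupled receptors found by sequence before a ligand was known. Their symbols matched 76 of the 30903 symbols in the table, and 42 of the 76 reached 10 RPKM (read number divided by gene length and by the total of the cell) in at least 1 cell. That level is used throughout to call a gene detected. The study measured polyadenylated RNA in 25 single cells from the hypothalamus, taken where the arcuate nucleus meets the median eminence. The cells came from a pool of 2 male RIP-Cre mice on a (C57BL/6 x DBA)F2 background, with an average age of 63 days, and carried green fluorescent protein from an adeno-associated virus (AAV) that is switched on by Cre. Cre is driven by a rat insulin promoter in this line, so a cell is marked wherever that promoter has been active and the virus has entered. All cells form 1 group and 1 pooled sample, so counts of cells are descriptions and no test was made.

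G protein-coupled receptors cross the plasma membrane with a bundle of helices and pass the binding of a ligand to G proteins, which raise or lower cyclic AMP, release calcium or open ion channels. Those called orphans have no agreed ligand, and several signal without one. The hypothalamus reads many hormones, peptides and metabolites through receptors of this class, and orphan members are studied there for body weight, growth and rhythm. The Gpr series also holds proteins that have since been paired with ligands and some that sit on internal membranes and may not act as receptors.

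Read depth per cell was estimated at 887500 to 2959000, with a median of 1791000. At the median depth, 10 RPKM corresponds to about 33.6 reads for the short gene Gpr180 and 229 reads for the long gene Gpr107, so the level is stricter for long genes. The tissue label was checked with 10 neuronal marker genes, of which each cell held 7 to 10. The microglial genes C1qa, C1qb and C1qc, the oligodendrocyte gene Mog, the astrocyte gene Gfap and the tanycyte gene Rax were listed at 0 in all cells, although 1 of 7 microglial, 2 of 6 oligodendrocyte, 1 of 5 astrocyte and 2 of 4 tanycyte markers were detected in some. Malat1, a nuclear RNA, was below 20 RPKM in 6 cells (1, 3, 5, 6, 29 and 31), and counts without these cells are given for the named genes found in 4 or more cells. The part of low Malat1 in any result was not tested.

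Of the 76 genes, 42 (55.3%) were detected in at least 1 cell, against 42.7% of all symbols and 59.1% of protein-coding symbols. Only 9 (11.8%) were detected in 13 or more cells, against 13.5% of all symbols and 20.5% of protein-coding symbols. Another 15 genes were found in 4 to 12 cells and 18 in 1 to 3 cells. A further 12 stayed below the level and 22 were listed at 0 in every cell. The value closest above the level was 10.2 RPKM for Gpr155 in cell 29, and the closest below was 9.95 RPKM for Gpr152 in cell 26. The first share is close to that of protein-coding symbols and is no result about these genes, and no test was made of the second. Other receptor families of the table gave 10 of 14 serotonin receptor genes in at least 1 cell, 13 of 26 adhesion receptor genes, and 10 of 19 muscarinic, adrenergic and dopamine receptor genes. None of the serotonin receptor genes, 4 of the adhesion genes and 1 of the monoamine and muscarinic genes reached 13 cells.

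**Figure D1:**
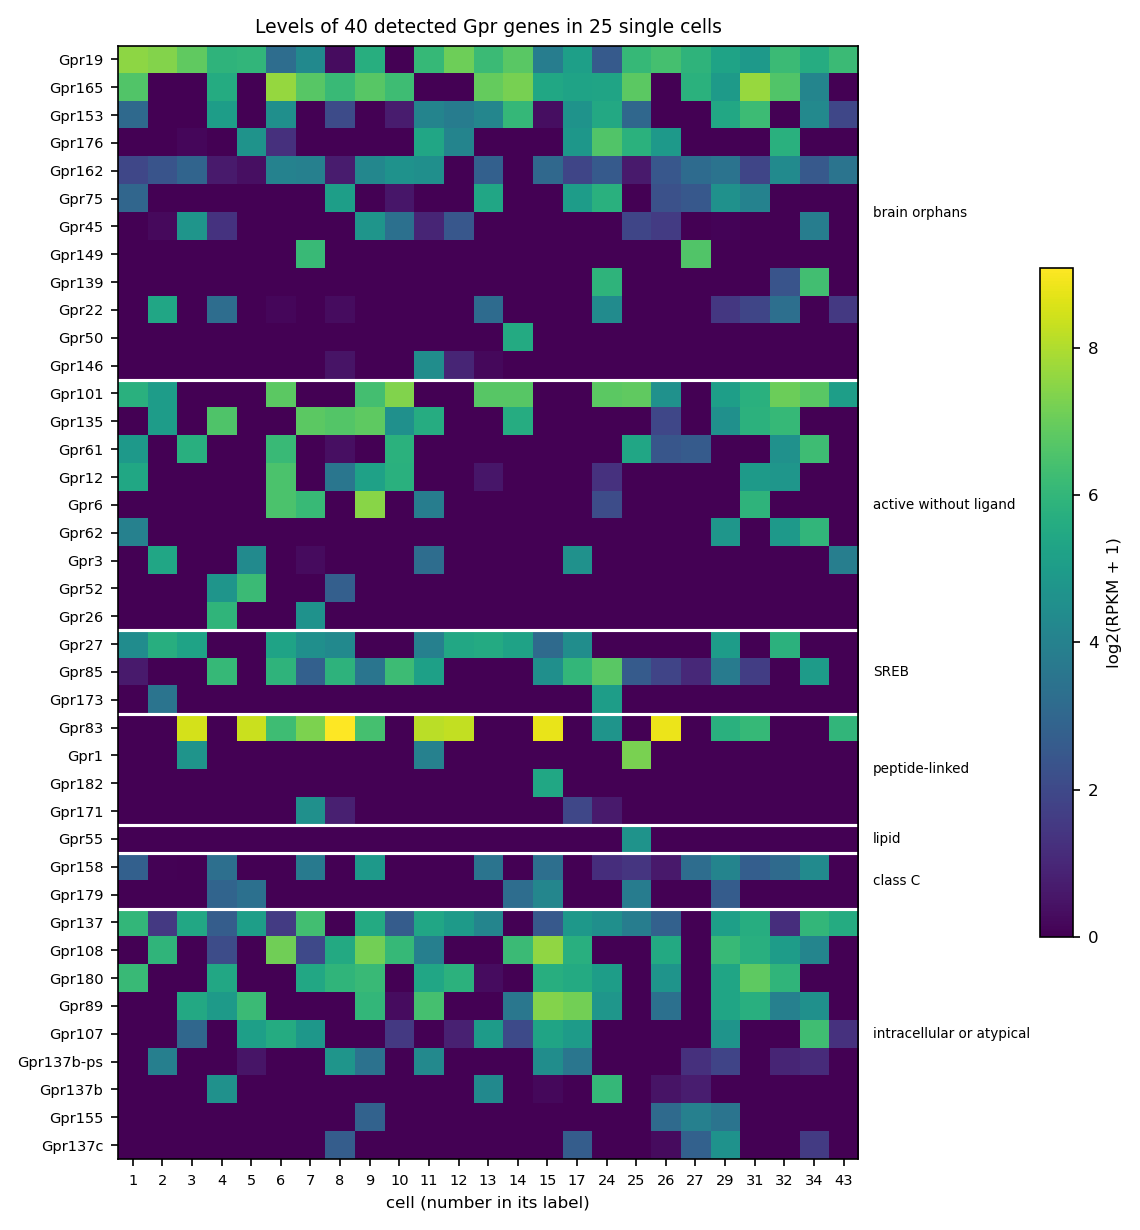
Each row is a detected Gpr gene (40 of the 42 are shown), grouped by role, and each column 1 of the 25 cells; colour gives log2(RPKM + 1). Gpr19 fills most columns, Gpr83 holds the brightest fields in 7 cells, and most rows are dark in the majority of cells.

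The most frequent gene was Gpr19, a class A orphan receptor found mainly in brain. It was detected in 21 of 25 cells (84%, exact Clopper-Pearson 95% interval 63.9 to 95.5%), with a lowest value of 0, a median of 59.9 and a highest value of 187 RPKM. Cells 1 and 2 were the highest, and cell 10 alone was listed at 0. Next came Gpr165, an X-linked class A orphan of which little is known, in 18 cells (72%, interval 50.6 to 87.9%). Its values ran from 0 through a median of 47.1 to 205 RPKM in cell 31 and 202 RPKM in cell 6. It was listed at 0 in the other 7 cells, with nothing in between: the lowest value above 0 was 16.5 RPKM. Without the low-Malat1 cells, 16 of 19 cells had Gpr19 and 14 had Gpr165. About 9.2% of the exon bases of Gpr19 overlap a gene on the opposite strand, and the protocol does not separate strands.

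Other brain orphans were less frequent and lower. Gpr153 and Gpr162 are related class A receptors with no known ligand. Gpr153 was in 11 cells, with a lowest value of 0, a median of 7.11 and its maximum, 74.9 RPKM, in cell 31, whereas Gpr162 was in 7 cells and never above 24.1 RPKM. Gpr162 was nevertheless listed above 0 in 23 cells, and at 1 RPKM it was counted in 19 cells. Only cells 6 and 11 reached the level for both genes. Gpr176, a receptor of the circadian pacemaker, was found in 8 cells and peaked at 96.8 RPKM in cell 24. Gpr75, studied for its effect on body weight, was in 6 cells and highest at 53.6 RPKM, again in cell 24. Of the 19 cells left without the low-Malat1 cells, 8 had Gpr153, 6 had Gpr162, 7 had Gpr176 and 4 had Gpr75.

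The rarest brain orphans were each high in very few cells. Gpr45, whose loss causes obesity in mice, was detected in cells 9 (25.9 RPKM), 3 (25.7 RPKM) and 34 (13.4 RPKM). Gpr149 was limited to cells 27 and 7, at 96.5 and 69.9 RPKM, which are also the cells of this collection with the glutamate transporter gene Slc17a6. Gpr139, which responds to aromatic amino acids, was in cells 34 (79.4 RPKM) and 24 (59.6 RPKM). Gpr22 was in cells 2 (41.0 RPKM) and 24 (19.9 RPKM), Gpr50, a relative of the melatonin receptors known from tanycytes, in cell 14 alone at 46.0 RPKM, and Gpr146 in cell 11 at 21.1 RPKM. Lower values were more widespread for Gpr45 and Gpr22, which were above 0 in 11 and 10 cells. At 1 RPKM each of these 2 genes was counted in 8 cells. Of the 25 genes placed among the class A brain orphans, 13 were detected, beside 59.1% of protein-coding symbols. Another 4 stayed below the level and 8 were at 0.

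**Figure D2:**
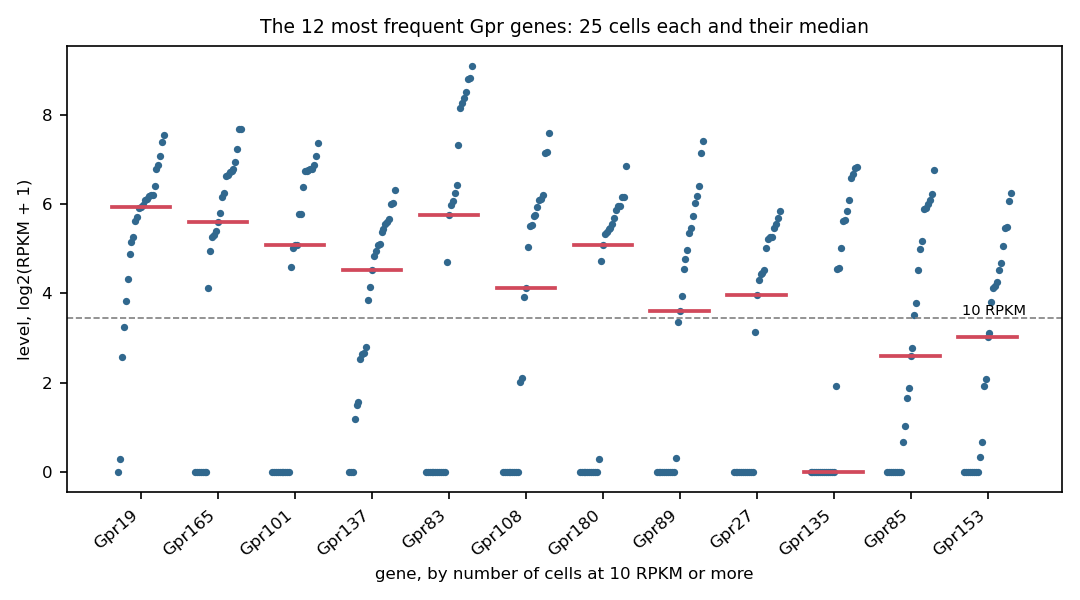
Points are the 25 cells of each of the 12 most frequent Gpr genes, sorted by level on a log2(RPKM + 1) axis, with red bars at the median and a dashed line at 10 RPKM. Gpr165, Gpr101 and Gpr83 show a gap between 0 and their lowest detected value, while Gpr137, Gpr85 and Gpr153 have several values between 0 and the line.

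A further set holds receptors reported to signal without added ligand, several of them through the stimulatory G protein and cyclic AMP. Of 11 such genes, 9 were detected, beside 59.1% of protein-coding symbols, and 22 of 25 cells held at least 1. Gpr101, an X-linked receptor of hypothalamus and pituitary whose duplication in people causes excess growth hormone, led them in 15 cells (60%, interval 38.7 to 78.9%). Its lowest value was 0, its median 32.8 and its maximum 163 RPKM, in cell 10. As with Gpr165, no cell lay between 0 and the level, and the lowest detected value was 23.1 RPKM in cell 26. It shared 12 cells with Gpr165, which is 80% of the Gpr101 cells and 66.7% of the Gpr165 cells.

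Gpr135, Gpr61 and Gpr62 are close relatives. Gpr135 was detected in 11 cells (lowest value and median 0), with its highest values in cells 9 (112 RPKM), 7 (111 RPKM) and 8 (100.4 RPKM). Gpr61, whose loss makes mice overeat, was in 7 cells, from 23.5 RPKM in cell 32 to 76.9 RPKM in cell 34. Gpr62 was in cells 34, 32, 29 and 1, at 61.7, 29.6, 26.5 and 15.0 RPKM. Cells 29 and 34 were also those with the feeding peptide gene Npy. In all, 16 cells held at least 1 of the 3 relatives and 5 held more than 1. Without the low-Malat1 cells, Gpr135 was in 9 of 19 cells, Gpr61 in 4 and Gpr62 in 2.

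The Gpr3, Gpr6 and Gpr12 receptors raise cyclic AMP in neurons without a ligand being added. Each was in a minority of cells: Gpr12 in 7, Gpr6 in 5 and Gpr3 in 4. Gpr6 had the widest range, with 176 RPKM in cell 9, 91.4 RPKM in cell 6, 68.0 RPKM in cell 7, 59.4 RPKM in cell 31 and 13.3 RPKM in cell 11. Gpr12 was highest in cell 6 at 91.3 RPKM and Gpr3 in cell 2 at 40.6 RPKM. The 3 genes covered 13 cells, 10 of them with a single member. Gpr6 and Gpr12 met in cells 6, 9 and 31, while Gpr3 met neither. Gpr12 was detected in 4 of the 5 cells with the peptide gene Sst and in 4 of the 5 with Gal, 57.1% of its own cells in each case. Of the Sst overlap, 1 cell was left without the low-Malat1 cells, and of the Gal overlap 3. Gpr12 itself was then in 4 of 19 cells, Gpr6 in 3 and Gpr3 in 3. Gpr52 (cells 5 and 4, at 72.6 and 25.8 RPKM) and Gpr26 (cells 4 and 7, at 61.3 and 23.7 RPKM) completed the detected genes of this kind, and Gpr21 and Gpr161 were listed at 0.

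The SREB receptors Gpr27, Gpr85 and Gpr173 are the most conserved orphans of the vertebrate brain. Gpr27 was detected in 13 cells, from 0 through a median of 14.6 to 56.4 RPKM in cell 32. Gpr85 was in 11 cells, from 0 through a median of 5.05 to 107 RPKM in cell 24. Gpr173 was in cells 24 and 2 only, at 32.0 and 10.4 RPKM. At least 1 of the 3 was present in 19 cells and more than 1 in 7 cells. Gpr27 and Gpr85 were each in 9 of the 19 cells left without the low-Malat1 cells. Among the 276 pairs formed by the 24 Gpr genes detected in 4 or more cells, Gpr85 and Gpr19 had the lowest correlation of log2(RPKM + 1) over the 25 cells (r = -0.71). The 4 cells without Gpr19 at the level (6, 8, 10 and 24, at 8.46, 0.22, 0 and 4.96 RPKM) all had Gpr85 at 58.3 RPKM or more. Cells 4 and 17, with Gpr85 at 66.9 and 63.3 RPKM, did have Gpr19, at 59.9 and 34.5 RPKM. The cells share their mice and protocol, and the correlation describes these cells only. The pair was singled out after its values were seen.

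Gpr83 was the Gpr gene with the highest level. It encodes a receptor for which the peptide PEN, cut from proSAAS (gene Pcsk1n), has been proposed as a ligand, and it is studied in hypothalamic control of energy use. The gene lies on chromosome 9 from 14860210 to 14870789 (GRCm38, plus strand), with no exon of another gene over its exons. Gpr83 was detected in 14 of 25 cells (56%, interval 34.9 to 75.6%) and listed at 0 in the other 11. Its values were 544 RPKM in cell 8, 450.5 RPKM in cell 26, 446 RPKM in cell 15, 360.1 RPKM in cell 3, 329.7 RPKM in cell 5, 307 RPKM in cell 12 and 280.1 RPKM in cell 11. After a gap came 158 RPKM in cell 7, followed by 84.3, 75.3, 66.4, 61.9, 53.0 and 24.8 RPKM in cells 9, 6, 31, 43, 29 and 24.

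The 7 cells with the highest Gpr83 were the same 7 in which Lhx1, a developmental transcription factor, was detected. Gpr83 ran from 280.1 to 544 RPKM (median 360.1) in these cells and from 24.8 to 158 RPKM (median 66.4) in its other 7 cells, without overlap. All 9 cells with Slc18a2, the vesicular monoamine transporter, also had Gpr83, 64.3% of the Gpr83 cells. Th, the rate-limiting enzyme of dopamine synthesis, was detected in 7 of the 14 Gpr83 cells, which is 87.5% of the 8 Th cells. The exception was cell 1, with Th at 318 RPKM and Gpr83 at 0. Without the low-Malat1 cells, 9 of 19 cells had Gpr83 and 11 had Gpr101. The 9 Gpr83 cells included all 5 remaining Lhx1 cells, all 6 Slc18a2 cells and all 6 Th cells. Gpr83 is also a leading gene of a cluster drawn from these same cells, so this overlap is a description of that pattern and no independent support for it.

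**Figure D3:**
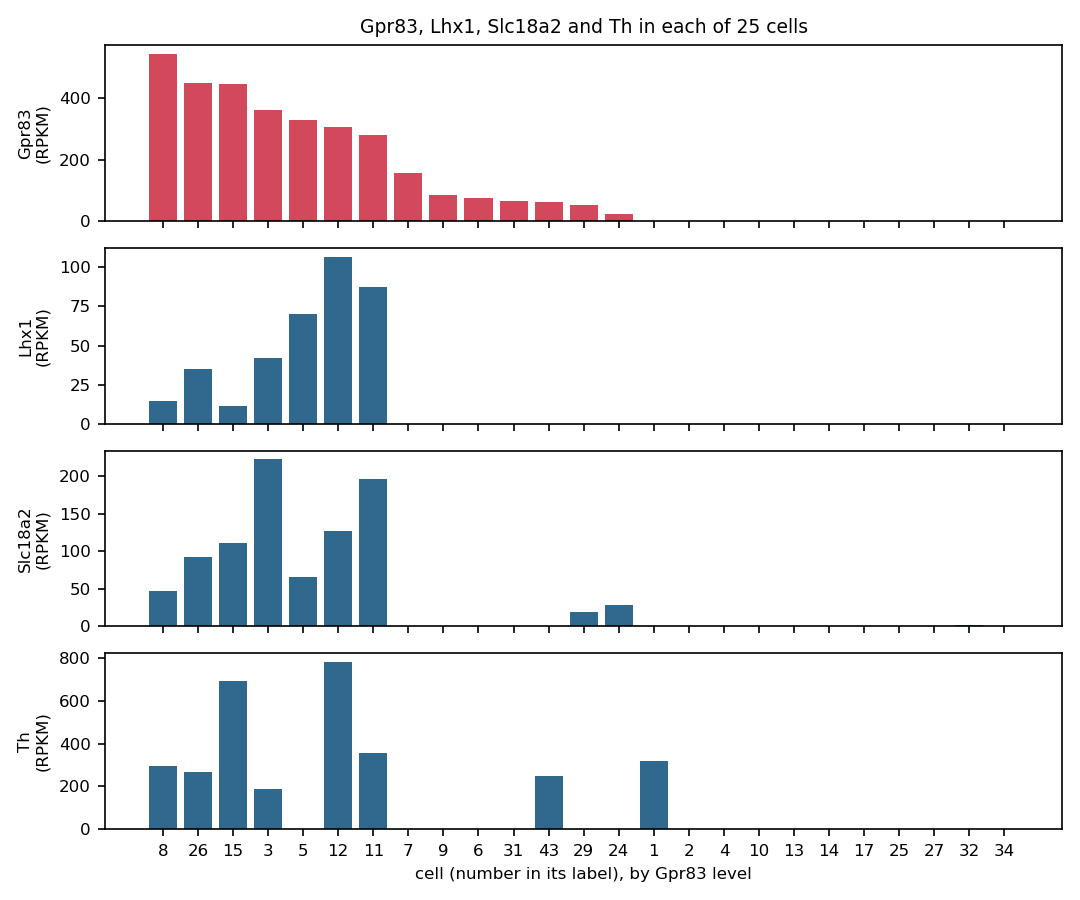
Bars give RPKM of Gpr83, Lhx1, Slc18a2 and Th in each of the 25 cells, ordered by Gpr83. Lhx1 bars stand only under the 7 highest Gpr83 cells, from 280.1 to 544 RPKM, whereas Slc18a2 and Th extend to a few lower ones and Th to cell 1.

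Genes with the most similar levels over the cells were sought among 9783 genes detected in at least 3 cells. For Gpr83 the 5 closest were Id4 (r = 0.85), Tmem178 (0.75), Slc18a2 (0.75), Lhx1os (0.73) and Zfp358 (0.72), as Pearson correlations of log2(RPKM + 1) over 25 cells. Id4, an inhibitor of basic helix-loop-helix transcription factors, was detected in 11 cells, all with Gpr83, and came first in each of 6 other settings (0.78 to 0.93). The lowest of these values is a Spearman rho, which Lhx1os, Sertm1 and Lhx1 equalled as rounded. For Gpr101 the closest were the somatostatin receptor gene Sstr1 (r = 0.76, detected in 12 cells, 11 of them with Gpr101), Tenm4 (0.73), Mest (0.71), Rpl23 (0.69) and Cbln4 (0.68). Tenm4 was detected in only 3 cells, 2 of them with Gpr101, whereas Mest and Rpl23 were detected in all 25 cells. Cbln4 was detected in 16 cells, 13 of them with Gpr101. For Gpr165 the closest were Camkv (r = 0.72), Gabrb2 (0.69), Ngef (0.66), Snx2 (0.65) and Cyp46a1 (0.65). Each set is the top of correlations with 9783 genes over 25 cells that share a pool of mice and a protocol.

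Other genes linked to peptides were rare. Gpr1, a chemerin receptor, was at 153 RPKM in cell 25, far above cells 3 (25.2 RPKM) and 11 (15.1 RPKM). Gpr171, for which another proSAAS peptide, BigLEN, has been proposed, was detected in cell 7 only, at 22.8 RPKM. Gpr182, an atypical chemokine receptor of vessels, was in cell 15 at 42.2 RPKM. Gpr37 stayed at 3.49 RPKM or below, and Gpr37l1 and Gpr15 were listed at 0.

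Of 11 genes linked to lipids, nucleotides, metabolites or ions, 1 was detected, beside 59.1% of protein-coding symbols, while 3 stayed below the level and 7 were at 0. The detected gene was Gpr55, which responds to lysophosphatidylinositol, at 24.5 RPKM in cell 25. Gpr158, a class C receptor that responds to glycine and binds the Rgs7 and Gnb5 complex, was above 0 in 15 cells but reached the level in 5, at most 29.3 RPKM in cell 9. At 5 RPKM it was counted in 11 cells, and without the low-Malat1 cells it was detected in 4 of 19. Gpr179, its relative from the retina, was in cells 15 and 25, at 17.2 and 13.3 RPKM.

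Genes of the Gpr series whose products sit on internal membranes, or whose standing as receptors is unsure, were among the most frequent. Of 11, 9 were detected, beside 59.1% of protein-coding symbols, and every cell held at least 1. No test was made of this count, which includes the pseudogene Gpr137b-ps. Gpr137, a lysosomal protein, was in 15 cells with a lowest value of 0, a median of 21.9 and its peak, 79.0 RPKM, in cell 7. Gpr108, a Golgi protein that many AAV serotypes need for entry, was in 14 cells (lowest 0, median 16.4, highest 191 RPKM in cell 15). It was listed at 0 in 9 cells, and all cells carried the viral marker. Any relation between Gpr108 RNA and virus entry was not tested. Gpr180 was also in 14 cells (lowest 0, median 32.7, highest 114 RPKM in cell 31) and Gpr89, a regulator of Golgi acidity, in 13 (lowest 0, median 11.1, highest 168 RPKM in cell 15). Gpr107, a protein of the secretory route, was found in 8 cells. Gpr155, a lysosomal cholesterol sensor, was in cells 27 and 29, at 14.6 and 10.2 RPKM, and Gpr137c in cell 29, at 23.8 RPKM. Reads of Gpr137 can come from Bad, which covers 15.4% of its exon bases on the opposite strand, and 27.9% of the exon bases of Gpr89 are covered likewise. Gpr137b was in cells 24, 4 and 13, at 65.4, 23.1 and 18.7 RPKM, and its pseudogene Gpr137b-ps in 5 cells, but these near-identical copies may share reads and their values are uncertain. Without the low-Malat1 cells, Gpr108 and Gpr180 were in 11 of 19 cells each, Gpr137 in 10, Gpr89 in 9, and Gpr107 and Gpr137b-ps in 5 each.

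A list of 13 Gpr genes known mainly from glia, immune cells or vessels held 1 that was detected, Gpr50 in cell 14, against 59.1% of protein-coding symbols. The list did not include Gpr182 of vessels, detected in cell 15 as given above. Of the 13, 7 were listed at 0 in all cells, among them Gpr17 of oligodendrocyte precursors, Gpr34 and Gpr84 of microglia and Gpr37l1 of astrocytes. A count of 0 in 25 cells allows a share of up to 12% by the limit of 3 counts, and up to 13.7% by the exact Clopper-Pearson interval, counting error only. The adhesion receptor gene Gpr112 was listed at 0. Gpr151, known from the habenula, was listed at 0 as well.

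A cell held a median of 10 detected Gpr genes, from 4 in cell 27 to 19 in cell 29. Leaving aside the internal and atypical proteins, the median was 8, from 3 in cell 27 to 12 in cells 7, 9 and 29. Cell 29 also had the most genes detected in all (6183), but cell 26 had 5700 genes and only 6 of the Gpr series. Over the 25 cells the number of Gpr genes had a correlation of r = 0.47 with the number of all genes and of 0.16 with depth. Among the receptors, Gpr83 was the highest in 9 cells, Gpr101 and Gpr165 in 4 each and Gpr19 in 2. The remaining 6 cells were each led by a different gene, among them Gpr1 in cell 25, Gpr135 in cell 4, Gpr149 in cell 27, Gpr6 in cell 9 and Gpr85 in cell 17. In cell 26, Gpr83 alone made up 63.3% of the summed Gpr level.

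**Figure D4:**
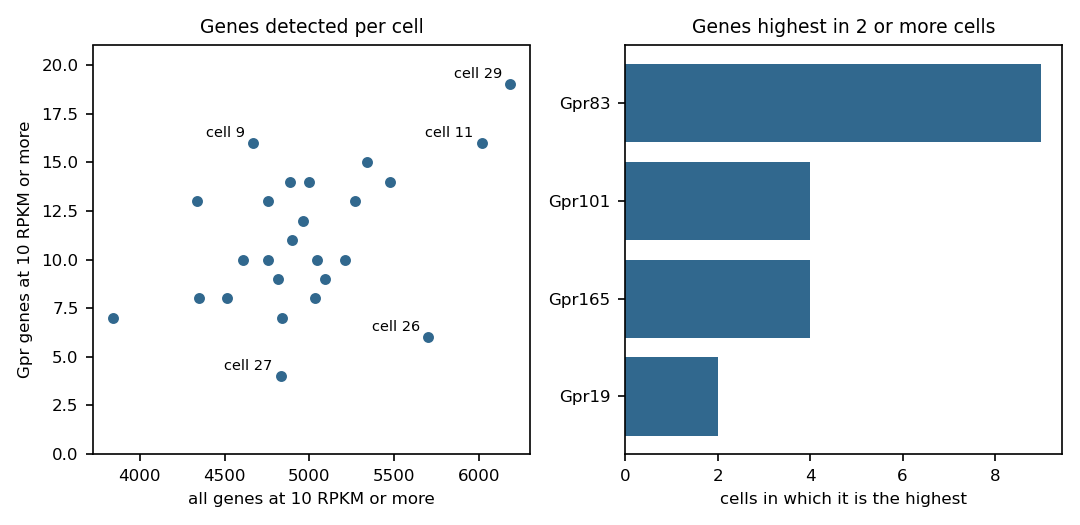
Left, each point is 1 cell, with the number of Gpr genes at 10 RPKM or more against the number of all genes at that level; cells 27 (4 Gpr genes) and 29 (19) are the extremes. Right, bars count the cells led by each receptor gene that was the highest in 2 or more cells, 9 of them for Gpr83.

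Every cell held at least 1 of Gpr83, Gpr101 and Gpr165, with 8 cells holding 1, 12 holding 2 and 5 holding all 3. The choice of these 3 was made after their values were seen. Gpr83 had negative correlations with both others over the cells (r = -0.44 with Gpr101 and -0.42 with Gpr165). Of the 7 Lhx1 cells, 2 had Gpr165 (cells 8 and 15) and 1 had Gpr101 (cell 26). As these 7 are the cells highest in Gpr83, this largely restates the negative correlations. It was not particular to Lhx1: of the 9 Slc18a2 cells, 4 had Gpr165 and 3 had Gpr101, and of the 8 Th cells 3 had each. In contrast, all 5 Sst cells had Gpr165, from 98.7 RPKM in cell 1 to 205 RPKM in cell 31. All 5 had Gpr101 as well. This was not particular to Sst, since all 5 Gal cells had both genes and Gpr165 was in 18 of 25 cells. Without the low-Malat1 cells, 2 of 5 Lhx1 cells had Gpr165, 1 of 5 had Gpr101, and 2 of 2 Sst cells had Gpr165.

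Genes for proposed ligands and partners ranged from every cell to none. Pcsk1n, the source of PEN and BigLEN, was detected in all 25 cells, from 178 to 550 RPKM with a median of 268 RPKM, and thus in the 11 cells without Gpr83 as well. Psap, the source of prosaposin, a proposed ligand of Gpr37 and Gpr37l1, was likewise in 25 cells (median 299 RPKM), while the receptors themselves were undetected. Rarres2, which encodes chemerin, was listed at 0. Of the partners of Gpr158, Gnb5 was in 25 cells, Rgs7 in 16 and Rgs7bp in 13. Among 20 genes of receptor trafficking and desensitisation, 16 were detected. Gprasp1, a receptor-sorting protein, was in 25 cells (median 124 RPKM), as was Reep5, with Bhlhb9, related to Gprasp1, in 24 and Reep1 in 21. The receptor kinase Adrbk1 was in 16 cells and the arrestins Arrb2 and Arrb1 in 13 and 5. Of 10 adenylyl cyclase genes, which make cyclic AMP, 7 were detected, led by Adcy3 in 16 cells, Adcy2 in 13 and Adcy5 in 9. Of 39 genes in a list made up mostly of orphan and adhesion receptors with other names, 24 were detected. The list was broad and included genes that are neither, such as Ptger3, P2ry14 and Ogfrl1. These list counts stand beside 59.1% of protein-coding symbols, and no test was made. The most frequent of the 39 were found in most cells, with Adgra1 in 23 cells, Adgrl1 in 21, Tpra1 in 20, Adgrg1 in 19, Mrgpre in 15 and Adgrb3 in 13.

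The sequence before the first listed start was richer in the dinucleotide CG for Gpr genes found in 4 or more cells than for the rarer ones. RefSeq (GRCm38.p6) gave the 250 bases before the first listed start for 52 of the 76 genes. For 40 of the 52, the bases just after that start were found in a GENCODE transcript of the gene. The other starts were not matched in this way, and 11 genes had several listed starts. In these windows CG was counted, which reads the same on both strands and is scarce outside CpG islands, the CG-rich stretches at many promoters. A ratio of observed to expected CG of 0.6 or more was found in 6 of 8 genes detected in 13 or more cells (75%) and in 7 of 11 detected in 4 to 12 cells (63.6%). It was found in 2 of 10 detected in 1 to 3 cells (20%) and in 3 of 23 detected in none (13%). The share was 47.1% over 16522 protein-coding symbols and 34.8% over all 27025 symbols in the table of windows. Genes are not replicates, no test was made, and the level of 0.6 was chosen after the values were seen. Of the 19 genes detected in 4 or more cells, 6 were below the level: Gpr101 (ratio 0.53), Gpr75 (0.46), Gpr6 (0.42), Gpr165 and Gpr85 (both 0.33) and Gpr62 (0.26). Gpr155 and Gpr137c were above it or on it (0.60 and 0.72) although found in 2 cells and 1. Of the undetected genes, Gpr157, Gpr160 and Gpr37 had ratios of 0.78, 0.71 and 0.69. Some windows lie inside the gene as GENCODE annotates it, not before it. Among them are those of Gpr19, Gpr108 and Gpr37 (ratios 0.69, 0.8 and 0.69) and of Gpr35 and Gpr174 (0 and 0.1). Windows of 3 genes are printed 5′ to 3′ with each CG in capitals, to show a window above the level and a pair below it. They are those of Gpr83 (chr9:14859960-14860209, plus strand, 18 CG, ratio 0.70), Gpr101 (chrX:57503758-57504007, minus strand, 13 CG, ratio 0.53) and Gpr65, a proton-sensing receptor of immune cells listed at 0 in all cells (chr12:98268385-98268634, plus strand, 3 CG, ratio 0.36).
Gpr83: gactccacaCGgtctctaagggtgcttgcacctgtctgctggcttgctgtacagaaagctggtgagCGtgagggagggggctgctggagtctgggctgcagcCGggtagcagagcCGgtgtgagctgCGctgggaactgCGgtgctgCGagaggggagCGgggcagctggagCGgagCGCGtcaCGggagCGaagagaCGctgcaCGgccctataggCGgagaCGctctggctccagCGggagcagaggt
Gpr101: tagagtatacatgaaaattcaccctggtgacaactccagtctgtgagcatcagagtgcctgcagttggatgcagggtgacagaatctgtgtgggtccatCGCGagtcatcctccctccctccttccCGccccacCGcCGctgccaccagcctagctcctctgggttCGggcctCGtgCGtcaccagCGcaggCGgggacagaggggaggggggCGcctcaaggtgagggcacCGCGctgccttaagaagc
Gpr65: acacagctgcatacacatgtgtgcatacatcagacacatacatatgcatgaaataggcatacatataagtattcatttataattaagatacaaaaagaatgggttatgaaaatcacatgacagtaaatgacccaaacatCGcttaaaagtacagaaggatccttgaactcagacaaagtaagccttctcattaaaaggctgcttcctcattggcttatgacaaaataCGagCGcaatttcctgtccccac
In the windows of Gpr83 and Gpr101 most CG lie in the part nearer the gene, and in that of Gpr65 they are few.

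**Figure D5:**
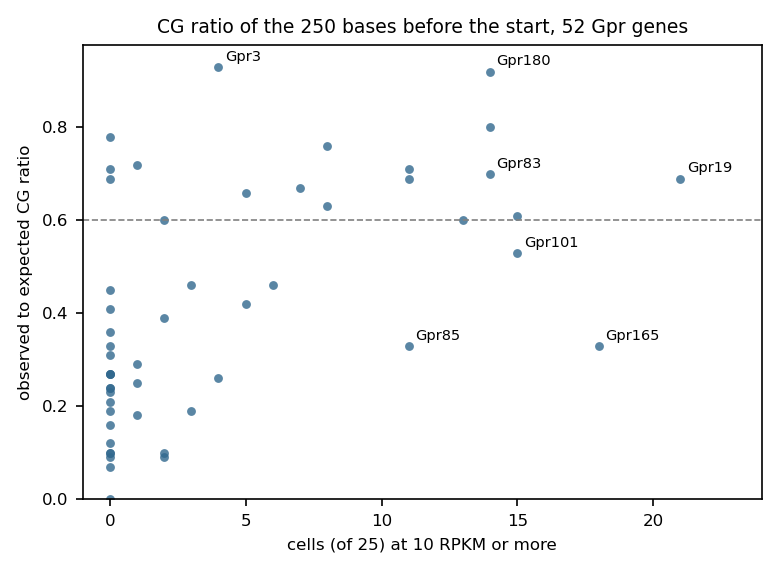
Each point is 1 of 52 Gpr genes, with the number of cells at 10 RPKM or more against the CG ratio. The ratio is of observed to expected CG in the 250 bases before the first listed start of the gene. The dashed line marks 0.6. Of the 8 genes in 13 or more cells, 6 lie on or above the line, against 3 of the 23 genes detected in no cell.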

How the data were processed

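The authors deposited RPKM values, in which read numbers had been divided by gene length and by the total of the cell, in 1 table of 33082 rows; the unit was read from the values, since the file is named as counts. All 25 columns were used. The submitters' processing notes name the builds GRCm38 and mm10, and featureCounts 1.4.6, SAMtools 0.1.19, Picard 2.5.0, TopHat2 2.0.14 and bcl2fastq as tools; what each did, and which annotation served, is not given in the sources used here. Per the labels' protocols, libraries were made with Smart-Seq2 and Nextera XT from cells picked by hand after papain digestion. No molecular identifiers or strand marks are stated, and doublets were not assessed.

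The 26 rows named by spreadsheet dates were left out, and repeated symbols were represented by their row of largest sum, leaving 30903 symbols. Exon lengths, positions and overlaps came from GENCODE M21 (GRCm38), which held 75 of the 76 genes (1 under a newer symbol); they may differ from the authors' lengths. Depth was read from steps of 1, 2 and 3 reads, tested on simulated data for 22754 genes at 12 depths (largest error 0.0534%), which does not cover errors in length. A median of 42.1% of low values per cell lay within 0.05 of a whole read, so depths are approximate. In cell 5 the share was 13.3% of 30 low values, so its depth is poorly fixed. Python 3.11.15, numpy, pandas and scipy were used. Intervals are exact Clopper-Pearson 95% intervals and, like the limit of 3 in 25 cells for a count of 0, cover counting error only.

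The genes, roles and lists were chosen with earlier results of these data known. Detected genes are named, except a few that are not reported here; the 12 most frequent and Gpr83 are given with their range, genes in 1 to 3 cells with those cells, and for Gpr83 and the 2 other genes with the largest spread the 5 most similar genes. Alternatives changed the detection level, scaling, repeated rows, pseudocount and cells used.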

Additional observations from a re-analysis of the deposited data

How the results depend on the processing

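The number of Gpr genes detected in at least 1 cell lay between 40 and 54 under 8 other settings, within 1.5 times the reported 42. The number in most cells, reported as 9, rose to 15 with any value above 0 and to 14 when 10 or more estimated reads were asked for. It was 6 at 20 RPKM, and 6 in most of the 19 cells left without the low-Malat1 cells. The median per cell, reported as 10, was 18 with any value above 0, 16 at 1 RPKM, 15 at 10 or more estimated reads and 14 at 5 RPKM, by construction of the lower level, and 8 at 20 RPKM. The overlap of Gpr83 with Th stayed at 6 to 8 cells in these settings. Of the 5 genes most like Gpr83, 3 were again among the top 5 with a pseudocount of 10 RPKM, 3 with Spearman rho and 3 without the low-Malat1 cells; the cause was not tested. Counts of cells for single genes left their interval most often with any value above 0 (10 of 42 genes). Without the low-Malat1 cells, Gpr137c was lost. Taking the start with the highest CG ratio, an alternative added after seeing the data, gave 3 in place of 2 of the 10 genes found in 1 to 3 cells. No paired analysis was possible because all cells form 1 group. At the lowest depth, 10 RPKM rests on about 16.6 reads for the short gene Gpr180 and 113 reads for the long gene Gpr107, so depth limits short genes more.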
